A study of Mus musculus with 22 samples.

Results

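Hox genes encode homeodomain transcription factors that give cells their position along the body axis. The deposited table held 39 mouse Hox genes, chosen by symbol alone as every entry named Hoxa, Hoxb, Hoxc or Hoxd followed by a number, among 54514 entries. Of these, 22 were expressed, meaning a mean of at least 1 TPM (a read abundance corrected for transcript length and scaled to a fixed library total) over the 22 libraries, and 17 were not. All 22 expressed members were above 0 in every library, and none of the other 17 reached 1 TPM in any library.

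The cells were mpkCCDc11 secondary clone 38, a mouse line immortalised from the kidney's cortical collecting duct and grown on permeable supports. Wild-type (WT) cells without a sort received no dDAVP (3 libraries, called vehicle here after the culture protocol) or dDAVP (3 libraries), a vasopressin analog that acts on the V2 receptor. A total of 4 reporter clones, C1, C11, C43 and C50, carried a GFP reporter that the series title ties to aquaporin-2 (Aqp2), the vasopressin-regulated water channel, all received dDAVP, and were separated by GFP signal into negative and positive cells (2 libraries per clone and fraction). Each clone is 1 clonal isolate, no reporter clone without dDAVP was analysed here, and the labels assign no dose or duration to a library. The culture protocol also names forskolin, an activator of adenylyl cyclase, and no label ties it to a library. The labels do not say that replicates were separate cultures, so p-values measure the spread between these libraries, which may be technical.

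The 39 genes lie in 4 clusters, Hoxa on chromosome 6, Hoxb on chromosome 11, Hoxc on chromosome 15 and Hoxd on chromosome 2. Genes of the same paralog number in different clusters descend from 1 ancestral gene, and in the embryo low numbers, at the 3' end of a cluster, are switched on earlier and nearer the head than high numbers. Polycomb complexes keep unused parts of a cluster silent, trithorax-type complexes with MLL methyltransferases keep used parts active, retinoic acid signals open the clusters from the low end, and Pbx and Meis proteins of the TALE class bind DNA together with Hox proteins. The collecting duct grows from the ureteric bud, where Hoxb7 is a standard marker, whereas the paralogs numbered 11 act in the surrounding nephron-forming mesenchyme.

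RefSeq promoter windows (GRCm38.p6) were found for 22 of the 39 members. The 250 bases before the most upstream annotated start are printed for neighbouring genes of the Hoxa and Hoxd clusters. These are the most 5' expressed gene and the unexpressed gene next to it on the 5' side, because expression stopped between them. Hoxa4 and Hoxd1, nearer the 3' end, were also unexpressed. Each window runs 5' to 3' on the strand of its gene, with the letters CG in capitals.
Hoxa10 (expressed; chr6:52240855-52241104, minus strand): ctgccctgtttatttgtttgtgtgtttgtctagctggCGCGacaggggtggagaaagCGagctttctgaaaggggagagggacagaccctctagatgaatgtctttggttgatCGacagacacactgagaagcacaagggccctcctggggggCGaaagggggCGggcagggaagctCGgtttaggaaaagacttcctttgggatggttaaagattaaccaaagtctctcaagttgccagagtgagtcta
Hoxa11 (not expressed; chr6:52245811-52246060, minus strand): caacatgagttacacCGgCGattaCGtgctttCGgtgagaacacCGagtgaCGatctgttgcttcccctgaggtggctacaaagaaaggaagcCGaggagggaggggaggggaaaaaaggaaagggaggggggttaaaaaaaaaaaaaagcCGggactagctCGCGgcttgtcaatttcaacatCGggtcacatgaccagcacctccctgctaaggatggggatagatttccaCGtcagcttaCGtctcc
Hoxd10 (expressed; chr2:74691641-74691890, plus strand): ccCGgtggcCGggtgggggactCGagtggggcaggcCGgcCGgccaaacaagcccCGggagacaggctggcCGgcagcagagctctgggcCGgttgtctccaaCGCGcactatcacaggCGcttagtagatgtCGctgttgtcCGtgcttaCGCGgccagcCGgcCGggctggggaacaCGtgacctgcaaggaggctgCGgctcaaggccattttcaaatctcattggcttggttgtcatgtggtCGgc
Hoxd11 (not expressed; chr2:74679308-74679557, plus strand): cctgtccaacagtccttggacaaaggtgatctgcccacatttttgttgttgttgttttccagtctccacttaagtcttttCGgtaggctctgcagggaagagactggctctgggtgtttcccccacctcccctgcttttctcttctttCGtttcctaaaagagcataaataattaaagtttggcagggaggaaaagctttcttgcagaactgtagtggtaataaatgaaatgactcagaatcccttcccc
CG occurred 7 times in the Hoxa10 window, 13 times in that of Hoxa11, 20 times in that of Hoxd10 and 2 times in that of Hoxd11. A further start of Hoxa10 and one of Hoxd11, not printed, each had 20. Over all Hox windows the median was 12 for 15 windows of expressed members (3 to 28) and 13 for 9 windows of the others (2 to 35), against 6 over 32851 windows of all genes. The 15 windows belong to 14 of the 22 expressed members, with Hoxb4 and Hoxb8 the only Hoxb genes, so Hoxb7 is absent. The 9 windows belong to 8 of the 17 others, with Hoxc4 the only Hoxc gene. The cyclic AMP response element TGACGTCA, searched on both strands, was in none of the 24 Hox windows and in 1.55% of all windows. Its half-site TGACG, the start of the same letters, was in 4 of the 15 and 3 of the 9 windows (17.77% of all), and the Pbx and Hox composite letters TGATNNAT were in 2 of the 15 and 2 of the 9 (7.68% of all). CCAAT was in 9 of the 15 and 5 of the 9 (33.85% of all), and TATAAA in 3 of the 15 and 1 of the 9 (12.37% of all). These matches are letters in a window and show no binding.

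Hoxb supplied 60.61% of the summed mean Hox TPM, Hoxd 23.39%, Hoxa 15.88% and Hoxc 0.12%. In Hoxb, 9 of 10 genes were expressed, all but Hoxb1. In Hoxa, 8 of 11 were expressed, the exceptions being Hoxa4 (mean 0.590 TPM, from 0.05 to 0.91 and above 0 in all 22 libraries), Hoxa11 and Hoxa13. Hoxd had 5 of 9, namely Hoxd3, Hoxd4, Hoxd8, Hoxd9 and Hoxd10, with Hoxd1, Hoxd11, Hoxd12 and Hoxd13 below the threshold. None of the 9 Hoxc genes was expressed, and the highest value of any of them was 0.78 TPM, for Hoxc8. Just inside the threshold stood Hoxa2 at a mean of 1.54 TPM (0.73 to 2.34) and just outside it Hoxa4.

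Hoxb7 was the most abundant member at a mean of 168 TPM (117 to 266 over libraries), 24.46% of the Hox total and rank 1184 among 13243 entries with a mean of at least 1 TPM. Hoxb9 followed at 85.7 TPM, then Hoxd8 at 82.1, Hoxb6 at 67.3, Hoxb2 at 43.8 and Hoxd9 at 40.1. The first 5 of these carried 65.17% of the Hox total. In Hoxa the highest was Hoxa9, a gene best known from blood progenitors and leukaemia, at 28.4 TPM (19.7 to 37.5), close to Hoxa7 at 26.9 and Hoxa10 at 24.3, and the ranges of these 3 over libraries overlapped. Low members among those expressed were Hoxb3 (2.75 TPM) and Hoxa3 (2.74 TPM).

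By paralog number, abundance was highest in the middle of the clusters. The summed mean was 194 TPM for paralogs numbered 7, 154 for 9, 93.8 for 8 and 72.2 for 6. Paralogs numbered 2, 5 and 10 summed to 45.3, 39.2 and 38.1 TPM, and those numbered 4 and 3 to 19.3 and 14.7. Paralogs numbered 11 and 12 were near 0 wherever a cluster holds them (0.055 and 0.274 TPM). Among those numbered 13, Hoxb13 stood alone at 9.77 TPM (3.50 to 15.8), while Hoxa13, Hoxc13 and Hoxd13 together added little to a sum of 9.88. Hoxb13 is the most 5' Hoxb gene and is known from the prostate and the tail end of the embryo.

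**Figure D1:**
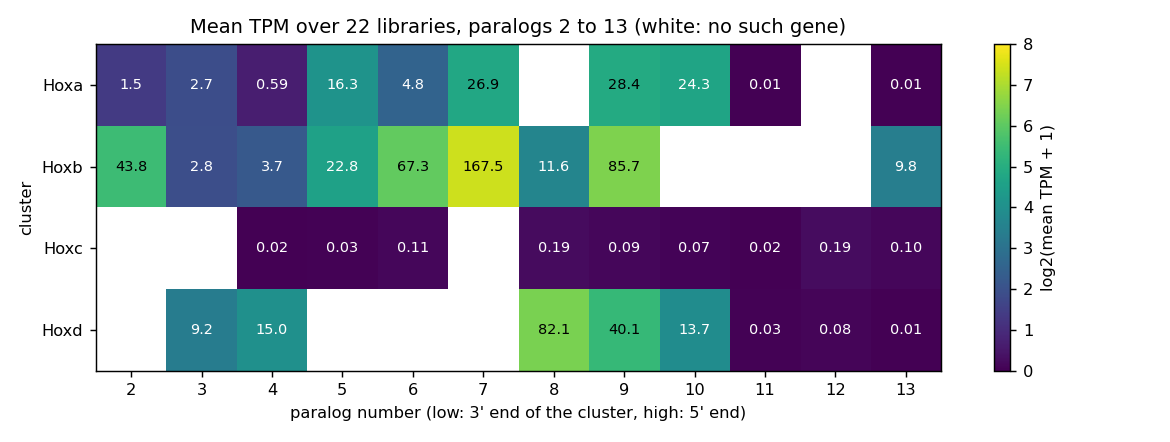
Mean TPM over 22 libraries for Hox genes, with clusters in rows and paralog numbers 2 to 13 in columns (colour: log2 of mean TPM + 1; white: no such gene). The Hoxc row is dark throughout, the brightest squares are Hoxb7, Hoxb9, Hoxd8 and Hoxb6, and Hoxb13 at 9.77 TPM is the only gene numbered 11 to 13 above 1 TPM.

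The summed Hox level, given here without a test, was 733 ± 26 TPM (SD, n = 3) in WT vehicle and 712 ± 25 (SD, n = 3) in WT dDAVP cells. In GFP-negative and GFP-positive cells, in that order, clone C1 had 548 and 577 TPM, C11 679 and 731, C43 664 and 798, and C50 626 and 745 (means of 2 libraries each). C1 was thus the lowest clone in both fractions, and the positive mean was the higher one in each clone. In bulk RNA, fewer cells with a transcript and less of it per cell cannot be told apart.

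The libraries fell into 10 with 17177 to 20250 genes above 0 and 12 with 23135 to 31292, split at the widest gap, and both sorts occurred in every group but C1 GFP-negative (both libraries in the lower set) and C11 GFP-negative (both in the higher). The unexpressed members followed that split. Between 1 and 4 of the 17 (median 3) were above 0 in the 10 libraries, against 6 to 14 (median 12.5) in the 12. Summed Hoxc was 0 to 0.24 TPM (median 0.045) in the 10 and 0.27 to 2.42 TPM (median 1.33) in the 12. The ranges of the summed Hox level overlapped, at 546 to 839 TPM (median 698) in the 10 and 578 to 757 TPM (median 704) in the 12. Whether the traces came from Hox transcripts in these cells was not tested. The depth is unknown because the table holds TPM and no counts.

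**Figure D2:**
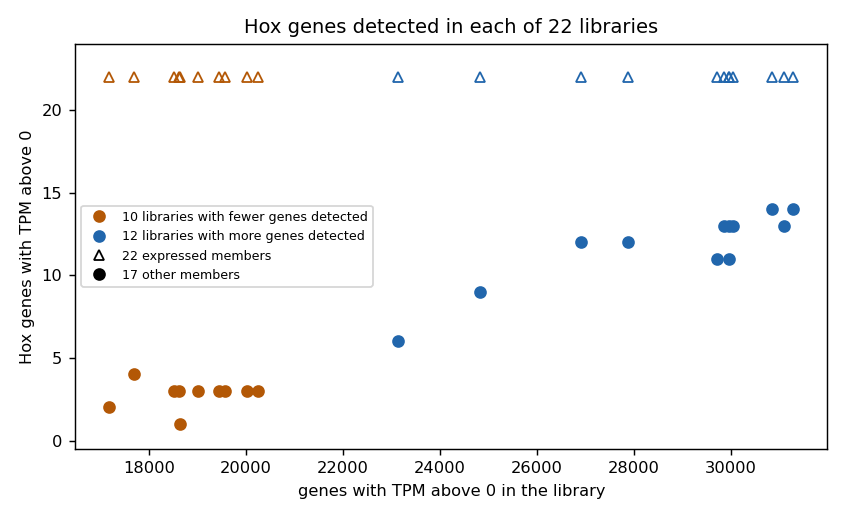
Hox genes above 0 (y axis) against all genes above 0 (x axis) in each of 22 libraries, as triangles for the 22 expressed and filled circles for the 17 other members. All triangles lie at 22, while the circles lie at 1 to 4 in the 10 libraries with fewer genes detected and at 6 to 14 in the 12 with more.

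Aqp2 and the GFP transcript followed the labels. Aqp2 was 64.1 to 74.9 TPM with vehicle and 2759 to 3025 TPM with dDAVP, and GFP was 5.31 to 17.6 TPM in the GFP-negative and 1065 to 1567 TPM in the GFP-positive libraries. Of 12 principal cell markers 10 averaged at least 1 TPM, while all 4 markers of the thick ascending limb and distal convoluted tubule, all 7 of stroma and all 4 of endothelium fell short of it. Single markers of intercalated cells (Atp6v1b1, 1 of 6), proximal tubule (Lrp2, 1 of 5), podocytes (Podxl, 1 of 3) and leukocytes (Cd68 and Csf1r, 2 of 4) passed.

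Relative to the mean of the other 3 clones, C1 had less transcript of 4 of 5 Hoxd and 6 of 9 Hoxb genes. C50 had more Hoxd3, Hoxd4 and Hoxd10 relative to such a mean, which includes the low clone C1. As deposited, no Hox gene set the 4 C50 libraries apart from the other 12. The comparison asked whether the 4 clones differ whatever the GFP fraction. In limma's moderated F-test (Benjamini-Hochberg adjusted p under 0.05 over 13113 genes, on log2(TPM + 1)) 9 of 22 Hox genes differed between clones, where 31.6% of all genes did. Among them were Hoxd3, Hoxd4 and Hoxd10 of the 5 Hoxd genes, Hoxb3, Hoxb7, Hoxb9 and Hoxb13 of the 9 Hoxb genes, and Hoxa7. Of these, Hoxa7 was lost after median-ratio (limma adjusted p = 0.0969) and quantile scaling (0.163) and Hoxb3 after quantile scaling (0.0774). Hoxd8 (0.0834 as deposited) was gained under both (0.0148 and 0.0082), and Hoxd9 (0.117 as deposited) under quantile scaling (0.0322). Against the mean of the other 3 clones, 4 of 5 Hoxd, 6 of 9 Hoxb and 1 of 8 Hoxa genes passed as lower in C1, where 14.2% of all genes did. Hoxd9, Hoxb2, Hoxb5 and Hoxb8 did not pass (limma adjusted p from 0.116 to 0.328). After median-ratio and after quantile scaling 4 Hoxd and 4 Hoxb genes passed as lower (13.6% and 16.3% of all genes). In C50, 3 of 5 Hoxd genes passed as higher than the mean of the other 3 clones, where 3.9% of all genes did, and 5 of 5 passed after either scaling (5.27% and 6.92% of all genes). The log2 differences of C1, passed or not, were negative in 5 of 5 Hoxd genes (median -0.71), 9 of 9 Hoxb genes (median -0.47) and 5 of 8 Hoxa genes (median -0.04), where the median over all genes was -0.01, and those of Hoxb and Hoxd kept their sign after both scalings. Of the 4 C1 libraries 3 had fewer genes detected, and the part of this in the difference was not tested beyond a fit with the number of genes detected as a covariate, in which 8 Hox genes differed between clones (35.3% of all genes). Markers of other cells also differed between clones by limma's F-test. Lrp2 of the proximal tubule was 0.94 to 3.60 TPM in C1 and 4.27 to 15.9 TPM in the others (adjusted p = 3.2e-05). Podxl of podocytes was 11.2 to 27.4 TPM in C1 and 5.42 to 11.4 TPM in C50 (adjusted p = 0.0058). The leukocyte markers Cd68 (adjusted p = 0.0023) and Csf1r (adjusted p = 0.0449) differed as well, as did 7 of the 10 principal cell markers. Among these Aqp2 had its lowest clone mean in C1, at 1043 TPM against 1626 (C11), 4288 (C43) and 2947 TPM (C50). The part of these markers in the Hox differences was not tested.

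Hoxb13 was 5.82, 5.31, 3.50 and 3.88 TPM in C1 (GFP-negative pair first, as in the following lists). It was 14.3, 13.8, 12.1 and 12.6 TPM in C11. In C43 it was 11.8, 10.5, 9.68 and 12.5 TPM, and in C50 it was 15.8, 11.5, 9.78 and 8.57 TPM. All C1 libraries lay below the other 12 and below the 6 WT libraries, which held 8.35 to 9.50 TPM. C1 differed from the other 3 clones by -1.20 on the log2 scale (SE 0.10, limma adjusted p = 1.1e-05), and C11 was higher by 0.60 (SE 0.10, adjusted p = 0.0041, and 0.0668 after quantile scaling).

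Hoxd10, a gene of limb and lower spinal cord patterning, was 8.83, 9.92, 6.64 and 7.30 TPM in C1. In the other clones it was 12.01 to 14.4 (C11), 14.3 to 15.1 (C43) and 13.8 to 18.7 TPM (C50), so C1 did not overlap them. Its difference was -0.76 in C1 (SE 0.09, limma adjusted p = 7e-05) and 0.38 in C50 (SE 0.09, limma adjusted p = 0.0147). In C43 it also passed as higher, by 0.30 (SE 0.09, limma adjusted p = 0.0469). Hoxb9, which patterns the rib cage, was also lowest in C1, with 60.6, 60.8, 60.8 and 67.7 TPM in C1 and 80.3 to 104 TPM in the other 12. Its difference in C1 was -0.60 (SE 0.08, limma adjusted p = 0.00015). The 6 WT libraries were also above C1 for both genes, at 12.7 to 19.1 TPM for Hoxd10 and 71.1 to 95.2 TPM for Hoxb9.

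Hoxd3 was lowest in C1 and highest in the positive cells of C50. It was 5.43, 5.27, 4.32 and 5.57 TPM in C1, and 7.12, 9.81, 19.9 and 16.9 TPM in C50. C11 held 7.54, 8.18, 9.98 and 10.4 TPM, and C43 held 6.80, 6.22, 6.65 and 6.63 TPM. C1 differed by -0.71 (SE 0.10, limma adjusted p = 0.00039) and C50 by 0.80 (SE 0.10, adjusted p = 0.00046), each against the other 3. Both C50 positive libraries stood above all other clone libraries and above the 6 WT libraries (7.28 to 15.1 TPM).

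Its neighbour Hoxd4 had the same order of clones, with 5.74, 6.76, 8.85 and 7.44 TPM in C1 and 13.6, 11.9, 25.2 and 18.9 TPM in C50. C11 held 13.9, 10.5, 12.7 and 16.5 TPM and C43 7.90, 11.6, 9.99 and 15.3 TPM, so C1 and C43 overlapped. C1 differed by -0.83 (SE 0.15, limma adjusted p = 0.0014) and C50 by 0.67 (SE 0.15, adjusted p = 0.0123). Hoxd3 and Hoxd4 share exon bases with each other and with Hoxd3os1 on the other strand in GENCODE M21, and the library kit marks no strand. Reads of the 3 genes may therefore be split between them.

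Hoxb7 was 129, 117, 134 and 129 TPM in C1 and 163, 182, 233 and 266 TPM in C43. It was 183, 159, 208 and 208 TPM in C11, and 149.98, 127, 174 and 159 TPM in C50, whose lowest library overlapped C1. C1 differed by -0.51 (SE 0.07, limma adjusted p = 0.00026) and C43 by 0.43 (SE 0.07, adjusted p = 0.0024). The clone with the highest level of the ureteric bud marker was thus not the one with the highest Hoxd levels.

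For Hoxa7 and Hoxb3 the calls were less firm. Hoxa7 went the other way, with 27.1 to 36.1 TPM in C1 and 19.9 to 26.3 TPM in C50 (C1 against the others 0.38, SE 0.11, adjusted p = 0.0175, and 0.0651 after quantile scaling). Hoxb3 was 1.37 to 1.99 TPM in C1 and 2.77 to 4.43 TPM in C50 (C1 against the others -0.47, SE 0.14, adjusted p = 0.0231, and 0.0739 after quantile scaling). The clone F-tests of Hoxa7 and Hoxb3 (limma adjusted p = 0.0395 for both) each lost their call in 10 of the 16 fits that left out 1 library. No single library ended the call of Hoxb7, Hoxb9, Hoxb13, Hoxd3, Hoxd4 or Hoxd10.

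Non-overlap of a clone's 4 libraries with the other 12 was seen for 4 Hox genes in C1 (Hoxb9, Hoxb13, Hoxd3 and Hoxd10, all low), where 6.92% of all genes did so. It was seen for 1 in C11 (Hoxa6, 5.18 to 6 TPM against 2.11 to 4.84 TPM, beside 1.4% of all genes) and for none in C43 (1.09% of all genes) or C50 (1.46%). Without clone C1, 3 Hox genes differed between the remaining clones (8.37% of all genes), and Hoxb9, Hoxb13, Hoxd4 and Hoxd10 were not among them (adjusted p from 0.213 to 0.864). With the GFP-negative libraries alone no Hox gene passed (3.03% of all genes), and with the GFP-positive libraries alone 8 did (34.2% of all genes).

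**Figure D3:**
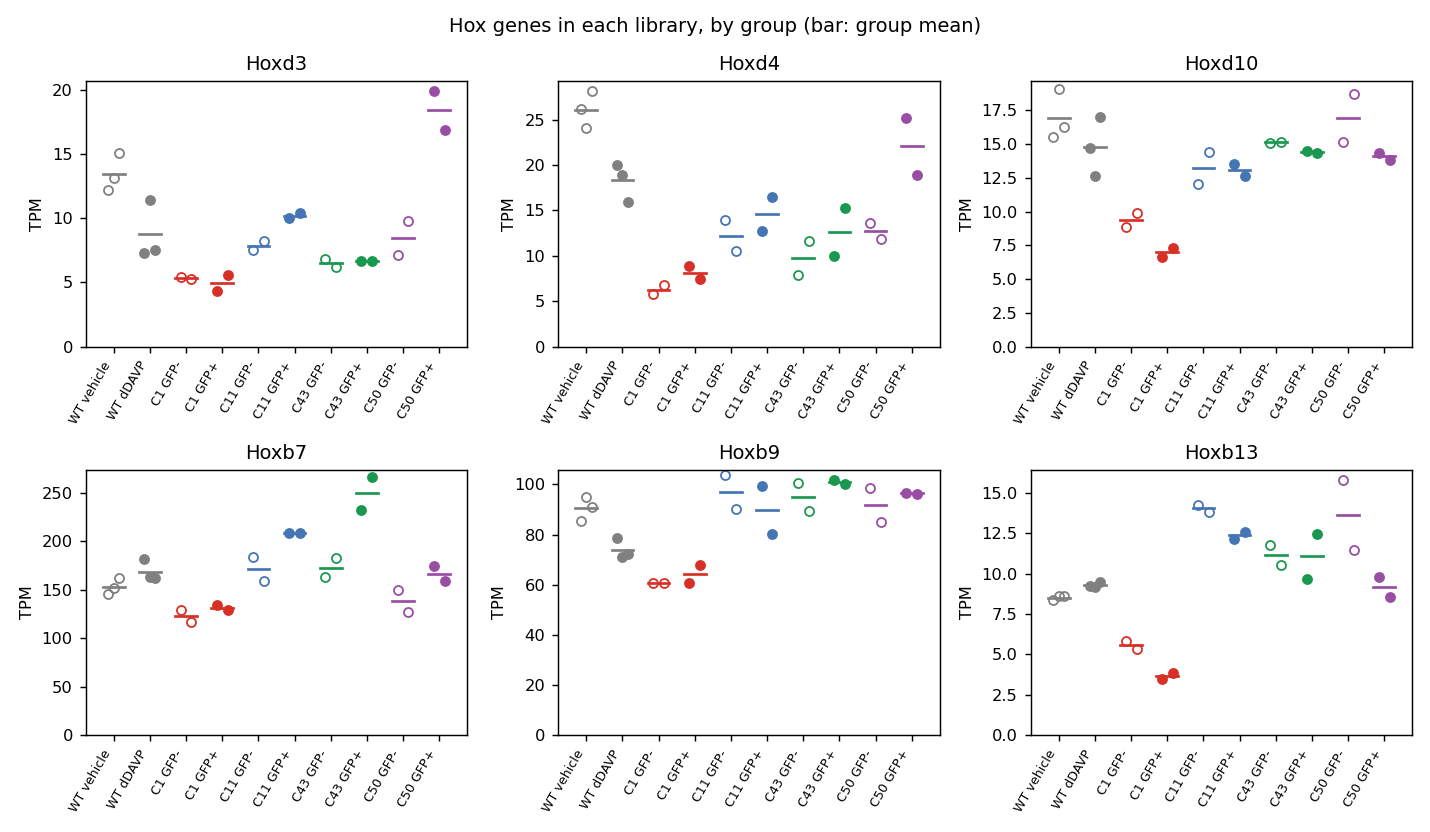
TPM of 6 Hox genes (panels) in every library, by group on the x axis (open circles: vehicle or GFP-negative; filled circles: dDAVP or GFP-positive; bars: group means; colours: WT and the 4 clones). C1 is lowest for Hoxb13 (3.50 to 5.82 TPM), Hoxb9 and Hoxd10, C50 GFP-positive is highest for Hoxd3, and C43 GFP-positive is highest for Hoxb7.

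**Figure D4:**
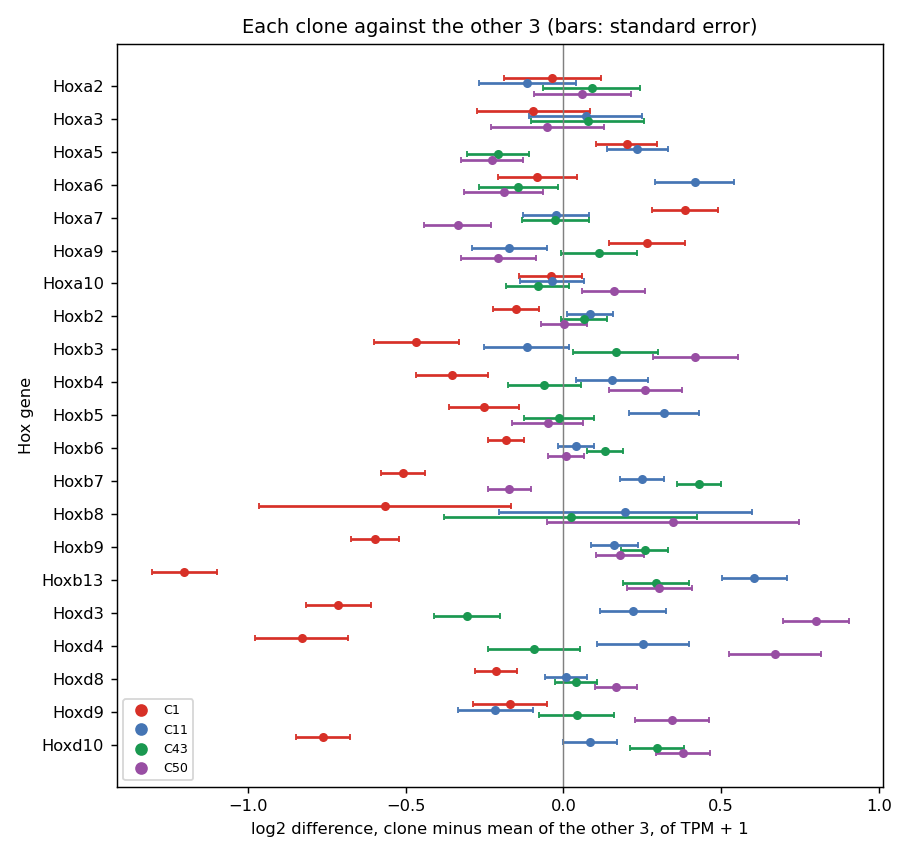
Log2 difference of each clone from the mean of the other 3 for the expressed Hox genes numbered 2 to 13 (x axis, on TPM + 1; points: estimates; bars: standard errors). The C1 points lie left of 0 for all Hoxb and Hoxd genes, down to -1.20 for Hoxb13, and the C50 points lie right of 0 for all 5 Hoxd genes.

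Between GFP-positive and GFP-negative cells of the same clones, the Hoxb5 to Hoxb7 stretch, Hoxd4 and Hoxd8 were higher in the positive cells, and Hoxa10 and Hoxa2 were lower. The comparison asked what distinguishes cells in which the reporter is on. In limma's test with clone as a term, 10 of 22 Hox genes passed, where 35.3% of all 13113 genes did. Higher were 7 (12.1% of all genes), among them Hoxa5, Hoxb5, Hoxb6, Hoxb7, Hoxd4 and Hoxd8. Lower were 3 (23.2% of all genes): Hoxa2, Hoxa10 and Hoxb13. The median log2 difference was 0.16 over the Hox genes and -0.06 over all genes. Over all genes the calls were 1582 higher and 3044 lower as deposited, 2382 and 2294 after median-ratio scaling, and 2560 and 2513 after quantile scaling. The Hox calls were 7 and 3, 8 and 2, and 10 and 1 in these 3 fits. Both scalings lost Hoxb13 and gained Hoxd3, and the quantile one also lost Hoxa2 (adjusted p = 0.058) and gained Hoxa6 and Hoxb2. Summed principal cell markers, Aqp2 included, were 656 to 3061 TPM in the GFP-negative and 3230 to 10827 TPM in the GFP-positive libraries. Aqp2, the gene tied to the sorted reporter, was itself 66.5 to 1680 TPM and 2008 to 7254 TPM, so the sort entered this sum. Of the 10 principal cell markers tested, 7 passed as higher and 1 as lower in the positive cells (12.1% and 23.2% of all genes). Other markers moved too: Atp6v1b1 of intercalated cells was 19.4 to 71.6 TPM in the negative and 44.6 to 110.1 TPM in the positive libraries (0.81, SE 0.22, limma adjusted p = 0.0090). Lrp2 was 0.94 to 12.9 and 3.38 to 15.9 TPM (0.56, SE 0.14, limma adjusted p = 0.0052), and Csf1r was lower in the positive cells, from 11.6 to 21.5 TPM to 7.05 to 14.1 TPM (-0.57, SE 0.11, limma adjusted p = 0.0011). The part of these markers in the Hox differences was not tested.

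Hoxb6 was the member whose fractions were furthest apart. It was 52.4 to 61.1 TPM (median 57.2) in the 8 GFP-negative libraries and 63.5 to 91.3 TPM (median 77.4) in the 8 GFP-positive ones. The 2 sets did not overlap, which held for no other Hox gene and for 5.98% of all genes. The log2 difference was 0.42 (SE 0.07, limma adjusted p = 0.00023). The 4 clones gave 0.17 (C1), 0.35 (C11), 0.50 (C43) and 0.67 (C50). The WT values were 58.7 to 66.1 TPM with vehicle and 67.7 to 76.7 TPM with dDAVP, without a call.

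Its neighbours Hoxb5 and Hoxb7 rose with it. Hoxb5 went from 16.2 to 23.2 TPM (median 17.8) to 17.6 to 31.7 TPM (median 25.6), a log2 difference of 0.40 (SE 0.10, limma adjusted p = 0.0064). Hoxb7 went from 117 to 183 TPM (median 154) to 129 to 266 TPM (median 191), a difference of 0.29 (SE 0.07, limma adjusted p = 0.0042). Within C43 the Hoxb7 difference was 0.53 (SE 0.12, adjusted p = 0.0127), and without C43 its adjusted p was 0.0501. Hoxb2, Hoxb3, Hoxb4, Hoxb8 and Hoxb9 did not pass, with log2 differences from -0.08 to 0.21.

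In the Hoxd cluster, Hoxd8 was 62.7 to 82.7 TPM (median 72.6) in the negative and 74.5 to 101 TPM (median 82.1) in the positive libraries. Its log2 difference was 0.24 (SE 0.06, limma adjusted p = 0.0055). Hoxd4 was 5.74 to 13.9 TPM (median 11.1) and 7.44 to 25.2 TPM (median 14.02), a difference of 0.41 (SE 0.13, limma adjusted p = 0.0188). Hoxd3 differed by 0.33 (SE 0.14, adjusted p = 0.0954) over the 4 clones and by 1.04 within C50 (SE 0.18, adjusted p = 0.0017), against -0.10 in C1, 0.34 in C11 and 0.03 in C43. Hoxd9 and Hoxd10, at the 5' end of the expressed stretch, had differences of -0.06 and -0.18 and did not pass, and that of Hoxd9 changed sign with the scaling. The antisense transcript Hoxd3os1 was 36.8 to 51.5 TPM in the negative and 43.6 to 59.8 TPM in the positive libraries (0.34, SE 0.08, limma adjusted p = 0.0028).

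Hoxa10, known from the uterus and blood, fell. It was 22.90 to 32.8 TPM (median 27.4) in the negative and 15.03 to 22.99 TPM (median 20.03) in the positive libraries, so only the edges of the ranges overlapped. The log2 difference was -0.45 (SE 0.09, limma adjusted p = 0.0019), from -0.14 in C1 to -0.64 in C50. Hoxa2, which patterns facial neural crest, fell by 0.45 on the log2 scale (SE 0.13, limma adjusted p = 0.0151), from 1.39 to 2.34 TPM (median 2.02) to 0.73 to 1.52 TPM (median 1.20). Hoxa5, a regulator of lung development, rose by 0.33 (SE 0.09, limma adjusted p = 0.0084), from 9.70 to 19.0 TPM (median 14.8) to 16 to 20.9 TPM (median 18.6).

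Hoxb13 passed less firmly. It was 5.31 to 15.8 TPM (median 11.6) in the negative and 3.50 to 12.6 TPM (median 9.73) in the positive libraries, a difference of -0.30 (SE 0.10, limma adjusted p = 0.0327). It lost its call when any of 7 libraries was left out (each C1 library, C43 GFP-positive 1 and C50 GFP-positive 1 or 2), with adjusted p from 0.0547 to 0.0727. It also lost it after median-ratio (0.217) and quantile (0.316) scaling. No single library ended the calls of Hoxa2, Hoxa5, Hoxa10, Hoxb5, Hoxb6, Hoxb7, Hoxd4 or Hoxd8.

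Whether the fraction difference itself varied between clones was tested as an interaction. None of 22 Hox genes passed in limma, where 0.869% of all genes did, and 2 had an unadjusted p under 0.05, Hoxd3 (adjusted p = 0.146) and Hoxb6 (adjusted p = 0.303). Without library 2 of C50 GFP-negative, 3 passed (Hoxa6, Hoxb6 and Hoxd3), where 38.6% of all genes did. The fractions were also tested within the 8 libraries with fewer genes detected, where no Hox gene and 1.96% of all genes passed, and within the 8 with more, where 5 Hox genes and 29.9% of all genes did. With the mean of each clone and fraction as the replicate, 2 passed, Hoxb6 and Hoxa10, beside 18.3% of all genes.

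**Figure D5:**
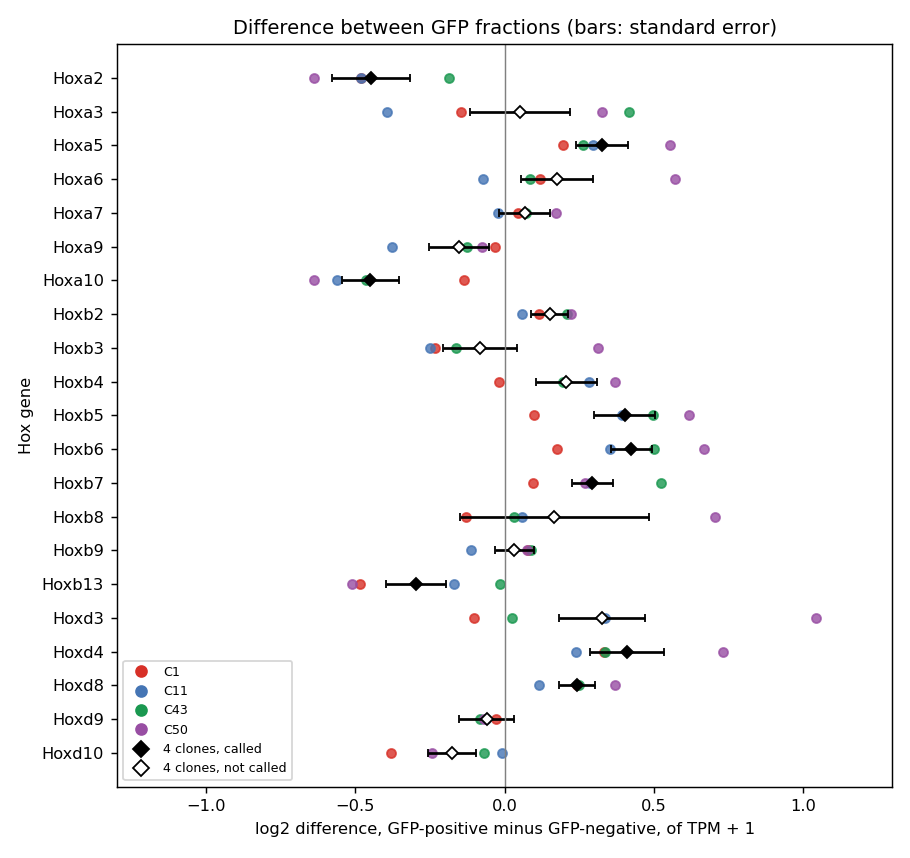
Log2 difference between GFP-positive and GFP-negative cells (x axis, on TPM + 1) for the expressed Hox genes numbered 2 to 13 (y axis), with coloured circles for the 4 clones and black diamonds with standard errors for the fit over all clones (filled: passed the test). Hoxb6 lies right of 0 in every clone, up to 0.67 in C50, Hoxa10 lies left of 0 in every clone, and the C50 circle of Hoxd3 stands alone at 1.04.

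In unsorted WT cells dDAVP changed 1 Hox gene of 22 by limma's test, where 8.88% of all 13494 genes tested passed. Hoxd4 fell. It was 26.1, 24.0 and 28.1 TPM with vehicle and 20.0, 18.9 and 15.97 TPM with dDAVP, so the groups did not overlap, and the log2 difference was -0.49 (SE 0.11, limma adjusted p = 0.0427). That call was lost (adjusted p from 0.0695 to 0.137) without any 1 of 5 of the 6 libraries (each vehicle library, and dDAVP 1 or 3), and after median-ratio (0.188) and quantile (0.22) scaling. In 12 of 22 Hox genes the 3 vehicle and 3 dDAVP libraries did not overlap, where 35.8% of all genes did not. After median-ratio scaling the count was 10, beside 31% of all genes. Of the 10 principal cell markers tested, 5 passed with dDAVP, 3 higher and 2 lower, beside 8.88% of all genes. The podocyte marker Podxl fell from 16.3 to 21.5 TPM with vehicle to 8.06 to 11.3 TPM with dDAVP (-0.94, SE 0.16, limma adjusted p = 0.0163). The part of these markers in the Hox values was not tested. Of the 12 Hox genes without overlap, Hoxd3 was 12.2, 13.1 and 15.1 TPM with vehicle. With dDAVP it was 7.28, 11.4 and 7.49 TPM (limma adjusted p = 0.0793). Hoxb9 was 85.3, 95.2 and 90.9 TPM with vehicle and 78.7, 71.1 and 72.1 TPM with dDAVP (limma adjusted p = 0.0646).

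By cluster, all 5 Hoxd genes had negative log2 differences with dDAVP (median -0.31), 6 of 8 Hoxa genes did (median -0.12) and 3 of 9 Hoxb genes did (median 0.10), and of these only Hoxd4 passed. These directions moved with the scaling: after median-ratio scaling 4 of 5 Hoxd (median -0.14), 4 of 8 Hoxa (median 0.03) and 1 of 9 Hoxb genes (median 0.26) were negative, and after quantile scaling 3 of 5, 3 of 8 and 1 of 9. The median was -0.07 over the 22 Hox genes and -0.16 over all genes. Median-ratio scaling moved the median of all genes to -0.0004, and the calls over all genes from 320 higher and 878 lower to 451 and 306 (438 and 372 after quantile scaling). Under quantile scaling the 1 Hox gene that passed was Hoxb5, higher with dDAVP (0.40, adjusted p = 0.0398), in place of Hoxd4. Hoxb5 was 24.3, 22.6 and 25.1 TPM with vehicle and 27.3, 29.1 and 26.3 TPM with dDAVP.

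Compared with WT cells given dDAVP, the mean of the 8 clone groups was lower for 1 Hox gene of 22, where 2.67% of all 13195 genes passed. It was Hoxd4 again, at 5.74 to 25.2 TPM over the 16 clone libraries and 15.97 to 20.03 TPM in WT dDAVP cells (log2 difference -0.62, SE 0.15, limma adjusted p = 0.045). The groups overlapped, since C50 reached above WT. After median-ratio and quantile scaling the adjusted p was 0.105 and 0.116, and the calls over all genes went from 89 higher and 263 lower to 127 and 226 and to 177 and 279. This comparison and the one above share the 3 WT dDAVP libraries. Clonal isolation, the reporter and the sort cannot be told apart in it, and without clone C1 the adjusted p was 0.256. The call was lost in 14 of the 19 fits without 1 library, each WT dDAVP library included (adjusted p from 0.0506 to 0.221 in the 14).

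Transcripts of the clusters that carry no Hox protein symbol were counted from a list of 19, of which 7 averaged at least 1 TPM. Between clones 4 of 7 differed, where 31.6% of all genes did. The shares of all genes that passed, against which the following lists are read, were 35.3% between GFP fractions, 31.6% between clones and 8.88% with dDAVP. For clones against WT dDAVP cells the share was 2.67%. Calls in the lists use the values as deposited. With dDAVP, median-ratio scaling took the calls over all genes from 320 higher and 878 lower to 451 and 306. Calls of the list genes after that scaling are not given here. Hotairm1, a noncoding transcript of the Hoxa cluster, was 10.8 to 18.0 TPM in C1 and 15.5 to 36.0 TPM in C11 (adjusted p = 0.0311). Hoxb5os, antisense to Hoxb5, was 5.77 to 8.21 TPM in C1 and 10.8 to 24.9 TPM in C50 (adjusted p = 0.0014). Hoxb3os was 2.30 to 2.89 TPM in C1 and 3.88 to 6.44 TPM in C50 (adjusted p = 0.0181), and Haglr, beside Hoxd3, was 0.64 to 0.77 TPM in C1 and 1.58 to 2.56 TPM in C50 (adjusted p = 0.0082). C1 was the lowest clone by mean for each of these 4. In GENCODE M21, 11 of the 22 expressed Hox genes share exon bases with another gene and 8 of them with one on the other strand, and without strand these reads cannot be told apart.

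Of the TALE class partners, 7 of 9 averaged at least 1 TPM. In GFP-positive cells Meis2 was higher (5.07 to 17.8 TPM in negative and 8.86 to 20.8 TPM in positive libraries, log2 difference 0.74, SE 0.15, limma adjusted p = 0.0012) and Pbx4 lower (14.1 to 23.8 TPM in negative and 8.28 to 14.4 TPM in positive libraries, -0.63, SE 0.10). Pbx4 was also the 1 of 7 TALE genes tested that passed with dDAVP, beside 8.88% of all genes. As deposited it fell by 0.54 (SE 0.13, limma adjusted p = 0.0496), at the edge of the threshold of 0.05. Between clones 3 differed (Pbx3, Meis2 and Pbx4), with Pbx3 at 45.4 to 54.7 TPM in C1 and 18.3 to 36.8 TPM in the others.

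Of 26 Polycomb genes tested 12 differed between GFP fractions (35.3% of all genes), 5 higher (12.1%) and 7 lower (23.2%). Among them Jarid2 (0.68, SE 0.21) was higher and Pcgf5 (-0.65, SE 0.09) and Mtf2 (-0.61, SE 0.11) lower in the positive cells. With dDAVP 3 of 27 fell and 1 rose, beside 8.88% of all genes in either direction. Ezh2, the methyltransferase of the repressive complex, was 68.4 to 77.1 TPM with vehicle and 46.4 to 51.1 TPM with dDAVP (-0.57, SE 0.08, adjusted p = 0.0095), Cbx2 fell by 0.79, Aebp2 fell by 0.55, and Rbbp7 rose by 0.30. Between clones 6 of 26 differed (31.6% of all genes), among them Pcgf6, at 38.1 to 46.01 TPM in C1 and 43.9 to 78.3 TPM in the others, Rbbp7, Pcgf5 and Mtf2. Of 21 trithorax and MLL genes 3 fell in GFP-positive cells (Wdr5 by 0.47, Psip1 by 0.41 and Men1 by 0.35) and none rose. With dDAVP 3 fell (Kmt2c, Mllt3 and Wdr5), and between clones 3 differed (Men1, Mllt3 and Dpy30). Men1, a subunit of MLL complexes, was 106 to 164 TPM in C1 and 47.5 to 92.4 TPM in the other clones.

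In the retinoic acid and Cdx list 8 of 21 genes averaged at least 1 TPM, and 4 of 8 differed between GFP fractions (35.3% of all genes). Crabp2, which carries retinoic acid to its receptors, was 174 to 547 TPM in the negative and 481 to 1158 TPM in the positive libraries (log2 difference 1.25, SE 0.08), and 181 to 227 TPM with vehicle against 526 to 602 TPM with dDAVP in WT cells (1.42, SE 0.11, limma adjusted p = 0.00066). Dhrs3, which reduces retinaldehyde, rose by 0.91 (SE 0.08) in the positive cells and Rxra by 0.90 (SE 0.28), whereas Rara fell by 0.53 (SE 0.13). Dhrs3 was also the 1 of 8 genes tested in the list that passed in clones against WT dDAVP cells, beside 2.67% of all genes. It was higher in the clones (0.42, SE 0.07, limma adjusted p = 0.0058). Between clones 3 of 8 differed (31.6% of all genes), namely Aldh1a1, a retinaldehyde dehydrogenase, at 1.09 to 6.53 TPM in C1 and 0 to 0.37 TPM in C50, Crabp2 and Dhrs3. No gene of these lists passed the test of the interaction of fraction and clone.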

How the data were processed

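RNA of 22 libraries was converted to cDNA with a SMART-Seq HT kit and sequenced in pairs, per the labels' protocols. The authors deposited 1 table of TPM per gene, and the submitters' processing notes name STAR and RSEM. Versions, genome build and annotation are not given in the sources used here. The table has 55415 lines; 980 lines sharing 79 symbols were summed to 54514 entries (no Hox symbol is repeated). No per-sample value column was left unmapped (0), and no 2 columns were identical. Values were used as deposited, as log2(TPM + 1), in limma 3.58.1 (R 4.3.3) with a mean-variance trend, two-sided, with Benjamini-Hochberg adjustment over all genes with a mean of at least 1 TPM in the libraries of the fit, at adjusted p under 0.05. Within-clone contrasts come from 1 fit of 8 group means and are adjusted over all genes separately. Log2 differences on this scale understate changes of low genes. Members and gene lists were chosen with earlier results of these data known. Values are given for Hox genes called in any of the 5 comparisons and the highest of each cluster, and for up to 4 called genes per other list and comparison, by size of change. Same-numbered libraries were not treated as pairs. The fits were tested on simulated data. Alternatives were other pseudocounts, filters, scalings and variance settings, subsets, and each library left out; median-ratio scaling of the counts of non-overlapping genes was added after seeing the data. Some items are not reported here.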

Additional observations from a re-analysis of the deposited data

How the results depend on the processing

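The count of 22 expressed members was 23 at a mean of 0.5 TPM, 16 at 5 TPM and 22 to 22 without any 1 library. Shares of all genes passing in the same fit stand in parentheses. For dDAVP (1 Hox gene called, 8.88%) the count was 0 with all genes above 0 (1.16%), median-ratio scaling (5.61%), no trend (5.12%), and the libraries with more genes detected (0.728%), 2 with genes detected as a covariate (20%), and 0 to 2 without 1 library (2.31 to 15.2%), the 2 without WT dDAVP 2; with fewer genes detected only 1 library per group remained and no test was run. For GFP fractions (10 called, 35.3%) it was 6 leaving clone C11 out (26.2%), 6 leaving clone C50 out (40%), 2 with clone means as replicates (18.3%), 0 in the libraries with fewer (1.96%) and 5 in those with more genes detected (29.9%), and 8 to 12 without 1 library (31.8 to 46%). For the interaction (0 called, 0.869%) it was 0 to 3 without 1 library (0.319 to 38.6%). For differences between clones (9 called, 31.6%) it was 3 leaving clone C1 out (8.37%), 0 with GFP-negative libraries only (3.03%), and 6 to 15 without 1 library (21.7 to 60.8%), the 15 without C50 GFP-negative 2 (60.8%). For clones against WT dDAVP (1 called, 2.67%) it was 0 with all genes above 0 (0.447%), median-ratio scaling (2.68%), quantile normalization (3.46%), no trend (2.36%) or leaving clone C11 out (1.44%), 2 with the covariate (3.05%), 3 leaving clone C50 out (6.66%), and 0 to 3 without 1 library (0.951 to 8.51%). The cause of these shifts was not tested. After median-ratio scaling 1 Hox gene rather than 0 set the C50 libraries apart (1.43%).

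No called Hox difference, with dDAVP, between GFP fractions or of clones against WT, changed direction under the alternatives run for it. Deviations of same-numbered libraries correlated at -0.208, -0.025 and -0.109 in WT cells and at 0.054, 0.015, 0.203 and 0.083 in C1, C11, C43 and C50, so the numbers were not taken as pairs. With the replicate block the counts were 0 for dDAVP (0.904% of all genes), 9 for GFP fractions (32.5%), 0 for the interaction (0.0839%) and 7 for differences between clones (31.3%). Clones against WT dDAVP has no numbers shared by culture and no block fit. The precision of low members is limited by a depth that TPM does not show.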

Other observations

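Genes that flank the clusters and genes that pattern the ureteric bud and kidney were also listed. Of 16 flanking genes tested, 5 differed between GFP fractions (3 higher, 2 lower), where 35.3% of all genes did, and Snx10 fell by 0.54 on the log2 scale (SE 0.20, limma adjusted p = 0.0460, at 0 to 3.33 TPM in the negative and 0 to 1.22 TPM in the positive libraries), while Nfe2l2 rose by 0.42 (SE 0.07), Skap1 by 0.42 (SE 0.07) and Hibadh by 0.40 (SE 0.06). Of 13 ureteric bud and kidney genes, 8 differed between GFP fractions (5 higher, 3 lower), against the same 35.3% of all genes. Gata3, a transcription factor of the collecting duct, was 97.2 to 180.3 TPM in the negative and 155 to 335 TPM in the positive libraries (log2 difference 0.91, SE 0.11). Etv4, an ETS factor downstream of Ret in the ureteric bud, was 3.59 to 7.77 TPM and 0 to 0.19 TPM (-2.48, SE 0.14), and Sox9 was 48.2 to 102 TPM and 17.4 to 69.3 TPM (-1.14, SE 0.21). Etv5, a relative of Etv4, was 0.29 to 2.92 TPM and 0 to 0.76 TPM (-0.97, SE 0.18, limma adjusted p = 0.00075). With dDAVP 2 of 14 ureteric bud and kidney genes passed, both lower, beside 8.88% of all genes. As deposited, Eya1 fell by 0.78 (SE 0.19, limma adjusted p = 0.049) and Osr1 by 0.75 (SE 0.17, adjusted p = 0.041). Both are known from the nephron-forming mesenchyme, and with vehicle they were 27.2 to 34.9 and 7.69 to 8.23 TPM. Median-ratio scaling took the lower calls with dDAVP over all genes from 878 to 306, and the calls of Eya1 and Osr1 after it are not given here. Osr1 also differed between clones, from 0.55 to 0.92 TPM in C43 to 5.95 to 7.51 TPM in C11.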
